A study of Xenopus laevis with 12 samples.

Results

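Stage 9.5 embryos of the frog Xenopus laevis exposed to genistein were compared with embryos exposed to BIO or Chiron, a pair of inhibitors of the kinase GSK3. Of the 12 libraries of the series, 9 were set against each other by their treatment labels. They were 3 genistein libraries and 6 inhibitor libraries, of which 3 came from BIO (6-bromoindirubin-3'-oxime) and 3 from Chiron (CHIR 99021). The 3 libraries labelled Control stayed in the model for the estimate of spread and are given as values. All 18791 genes that passed a filter on low counts, of 18892 in the deposited table, were tested for genistein minus the mean of the BIO and Chiron effects.

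All groups were whole embryos at stage 9.5 (early gastrula by their labels), and each library held RNA of 3 pooled embryos. The labels give no genotype, strain or clutch. The series text places genistein treatment at the 4-cell stage. The sources used here state no doses, nor what Control embryos received, nor when BIO and Chiron were added, so whether the compounds were matched in dose and time is not known. Nothing in the labels says that replicates came from separate clutches, so a p-value speaks only of the spread among these libraries, which may be technical.

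In canonical Wnt signalling GSK3 marks beta-catenin for destruction, and a Wnt ligand or a GSK3 inhibitor spares beta-catenin, which enters the nucleus and activates target genes with TCF factors. In the frog blastula, maternal beta-catenin on the dorsal side switches on siamois and nodal3, which lead to the Spemann organizer, the source of secreted BMP and Wnt antagonists. Genistein, an isoflavone of soy, is widely used to block protein tyrosine kinases, with further reported targets such as estrogen receptors and topoisomerase. The comparison asks where embryos exposed to genistein differ from embryos with GSK3 blocked.

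The genistein libraries held 11091927 to 13259764 counts and the BIO and Chiron libraries 13666222 to 15486533. For this difference in totals an exact two-sided permutation test over 84 regroupings gave 0.0119, the smallest p it can give. A count of 0 in 1 library allows a level of up to 0.194 to 0.270 CPM, counting error only, where CPM is the count relative to the library size scaled by TMM. CPM is not corrected for gene length and is compared between samples only. Mitochondrially encoded transcripts took 14.1%, 1.46% and 8.37% of counts in genistein replicates 1 to 3, against 0.553%, 2.66% and 0.841% in BIO, 0.999%, 1.40% and 1.62% in Chiron, and 13.5%, 0.946% and 4.23% in Control. Genistein 1 and Genistein 3 thus lay above all 6 inhibitor libraries, and Genistein 2 lay inside their range (exact permutation p = 0.0357 for means of 7.96% and 1.34%). Genistein 1, Genistein 3 and Control 1 also stood apart on the first principal component (57.4% of variance), at -93.2, -68.0 and -60.9, against 1.11 to 37.2 for the other libraries. Results are therefore given from the plain fit, from a fit with the mitochondrial share as covariate, and from a fit without those 3 libraries. In that last fit Genistein 2 is the lone genistein library, taken to have the spread of the other groups, and its calls rest on this 1 library. Genistein 2 itself lay farthest out on the second component (13.4% of variance), at -56.1, against -17.4 to 34.0 for the other libraries. What sets it off there was not tested. A list of 34 marker symbols of tissues formed later matched 8 genes in the deposited counts, of which 7 were tested. These were copies of cebpa, hba-l5, foxj1.2, tubb2b, ckm and tnnt3, so most of the listed markers, those of lens included, had no tested gene. The 7 summed to 34.9 to 44.9 CPM in genistein, 39.3 to 47.0 CPM in BIO and Chiron and 46.9 to 53.1 CPM in Control. None of the 7 passed the test. Their level was low in every group, and cebpa.S, cebpa.L, hba-l5.L and foxj1.2.L held most of it.

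Genistein embryos differed from GSK3-inhibited embryos in genes of both directions, and a larger part of the lower genes than of the higher ones was called in every fit. In the plain fit 2437 genes were higher (13.0% of those tested) and 1698 lower (9.04%) in genistein, by edgeR's quasi-likelihood test at an adjusted p under 0.05. With the mitochondrial share in the model 318 were higher (1.69%) and 1217 lower (6.48%). Without Genistein 1, Genistein 3 and Control 1 the numbers were 71 higher (0.377% of 18822) and 687 lower (3.65%). Of the 2437 higher genes, 16 passed in the same direction in all 3 fits (0.0851% of all genes), and of the 1698 lower genes 416 did (2.21%). In bulk RNA of whole embryos, fewer cells of a type and less RNA per cell cannot be told apart, here or in any result that follows.

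The number of calls in the plain fit hung on single libraries. Of the 2437 higher genes 2285 had an adjusted p between 0.025 and 0.05, so a small change of the fit moves many of them across the threshold. Leaving out Genistein 1 gave 14 higher genes and leaving out Genistein 3 gave 13. The number was 61 with BIO 1 left out, 51 with BIO 3, and 68, 150 and 77 with Chiron 1, 2 and 3. It was 1568 without Control 3 and 5143 without Genistein 2. Lower genes numbered 286 and 224 with Genistein 1 or 3 left out, 434 and 402 with BIO 1 or 3, and 427, 614 and 443 with Chiron 1, 2 or 3, against 4937 without Genistein 2. In the fit with the mitochondrial share the higher count of 318 was 1131 without Genistein 2. It was 142 with BIO 1 left out, 156 with BIO 3, 207 with Chiron 1, 139 with Chiron 3, and 120, 140 and 169 with Control 1, 2 or 3. The lower count of 1217 was 798 without Control 1. The split of calls also followed the scaling: 1201 higher and 2218 lower with library totals alone, and 2821 and 1481 with DESeq2 size factors. Median log2 fold change over all genes was -0.03 in the plain fit.

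**Figure D1:**
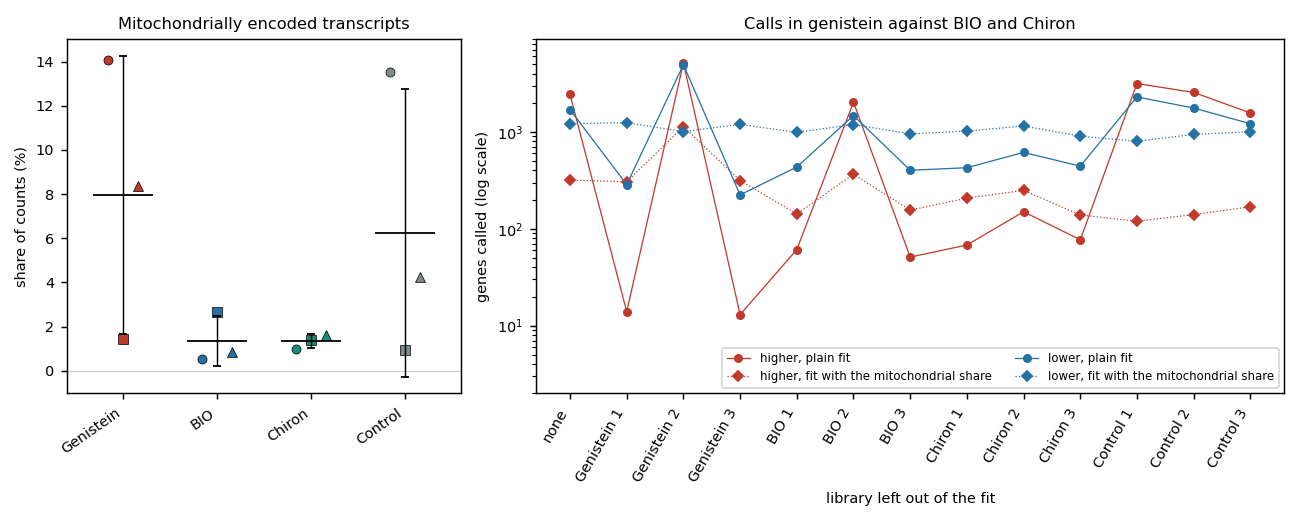
Left, share of counts from mitochondrially encoded transcripts (%) in each library, with the group mean and SD (n = 3). Genistein 1, Genistein 3 and Control 1 sit at 14.1%, 8.37% and 13.5%. Right, number of genes called higher or lower in genistein than in BIO and Chiron (log scale) when no library or the named library is left out, where the plain count of higher genes runs from 13 to 5143 and the count of lower genes with the mitochondrial share from 798 to 1243.

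Genistein 2, whose mitochondrial share lay among those of the inhibitors, was below all 6 BIO and Chiron libraries in 1579 of the 1698 lower genes (93.0%; 26.7% of all genes), and above all 6 in 936 of the 2437 higher genes (38.4%; 24.3% of all genes). The genes were called with Genistein 2 in the fit, so these positions are a description. All 3 genistein libraries lay below all 6 inhibitor libraries in 1550 of the lower genes (91.3%; 11.3% of all genes tested do), and above them in 923 of the higher genes (37.9%; 7.10% of all genes). Without the 3 libraries that stood apart, all 1698 lower genes and 1861 of the higher ones (76.4%) had the same sign. That fit shares Genistein 2 and all 6 inhibitor libraries with the fit that called these genes, so this too is a description.

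Control values differed in position among the lower genes, which were chosen for low genistein values. In 968 of the 1698 lower genes (57.0%; 9.67% of all genes) all 3 Control libraries lay above all 3 genistein libraries. In 102 (6.01%; 4.46% of all genes) all 3 Control libraries lay below all 6 BIO and Chiron libraries, and 27 met both conditions. Among the 416 genes lower in all 3 fits these numbers were 333, 52 and 18. A lower value in genistein can thus mean genistein below Control, inhibitors above Control, or both. Control values are given beside many of the genes that follow, and where they are not, these cases are left unseparated.

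Among the early dorsal targets of maternal beta-catenin, the tested copies of siamois and nodal3 were lower in genistein. Siamois, the homeobox gene at the head of the dorsal programme, had 13.0, 4.62 and 8.26 CPM for its copy sia1.L in genistein, against 47.4, 57.3 and 53.6 CPM in BIO and 50.5, 33.7 and 48.4 CPM in Chiron. Every inhibitor library lay above every genistein library, while Control (12.7, 6.51 and 7.17 CPM) overlapped genistein. The sia1.L mean was 8.63 ± 4.20 CPM in genistein (SD, n = 3) and 48.5 ± 8.10 CPM in BIO and Chiron (n = 6), a log2 fold change of -2.49 ± 0.33 (SE; edgeR adjusted p = 0.00332). With the mitochondrial share it was -3.21 ± 0.19 (edgeR adjusted p = 1.38e-07). Against BIO alone the sia1.L log2 fold change was -2.61 ± 0.35 and against Chiron alone -2.36 ± 0.35 (edgeR adjusted p = 0.00644 and 0.0076).

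The related gene sia2.S had 8.16, 1.98 and 5.19 CPM in genistein, against 16.3, 16.1 and 17.5 CPM in BIO and 22.7, 16.6 and 20.2 CPM in Chiron. The groups did not overlap, and the log2 fold change of sia2.S was -1.83 ± 0.36 (edgeR adjusted p = 0.0174), a call lost without Genistein 3. Control had 10.1, 5.16 and 5.68 CPM. The gene nodal3.1.L, a divergent Nodal family ligand of the dorsal side, had 10.3, 1.49 and 4.90 CPM in genistein, against 40.2, 49.5 and 43.8 CPM in BIO and 47.1, 36.3 and 49.4 CPM in Chiron. Its log2 fold change was -3.0 ± 0.46 (edgeR adjusted p = 0.00548), and Control at 11.3, 5.22 and 9.52 CPM again overlapped genistein. Its tandem neighbour nodal3.2.L had 2.96, 0.908 and 3.84 CPM in genistein, against 18.5, 29.2 and 20.0 CPM in BIO and 27.9, 23.6 and 30.0 CPM in Chiron (log2 fold change -3.28 ± 0.48, edgeR adjusted p = 0.00478). Copies of nodal3 are near-identical and may share reads, as may L and S homeologs (the copies of a gene from the genome duplication of this species), which leaves the split between copies uncertain.

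Of the 8 tested early dorsal genes 5 fell and 0 rose, against 9.04% and 13.0% of all genes, with a median log2 fold change of -1.49. The fifth was nodal6.S (-1.15 ± 0.32, edgeR adjusted p = 0.0315), chosen after its value was seen, as are all genes below that complete a count or a list. The remaining members nodal5.L (0.94), nodal5.2.L (0.59) and nodal6.L (0.02) were not lower in the plain fit and did not pass. Genistein had 24.6, 4.21 and 16.6 CPM for nodal5.L, against 5.93 to 9.97 CPM in BIO and Chiron. With the share these members stood at -0.44, -0.91 and -1.42. With the mitochondrial share 6 fell (median -2.25) and without the 3 libraries 7 (median -2.55). Their summed level was 115, 22.5 and 76.0 CPM in genistein, against 140 to 210 CPM in BIO and Chiron and 34.2 to 96.1 CPM in Control. Genistein 2, with a mitochondrial share like that of the inhibitors, was the genistein library farthest from them in this sum. Within genistein, BIO and Control the order of the sum was that of the mitochondrial share, and within Chiron it was not. The part of the share in this sum was not tested.

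**Figure D2:**
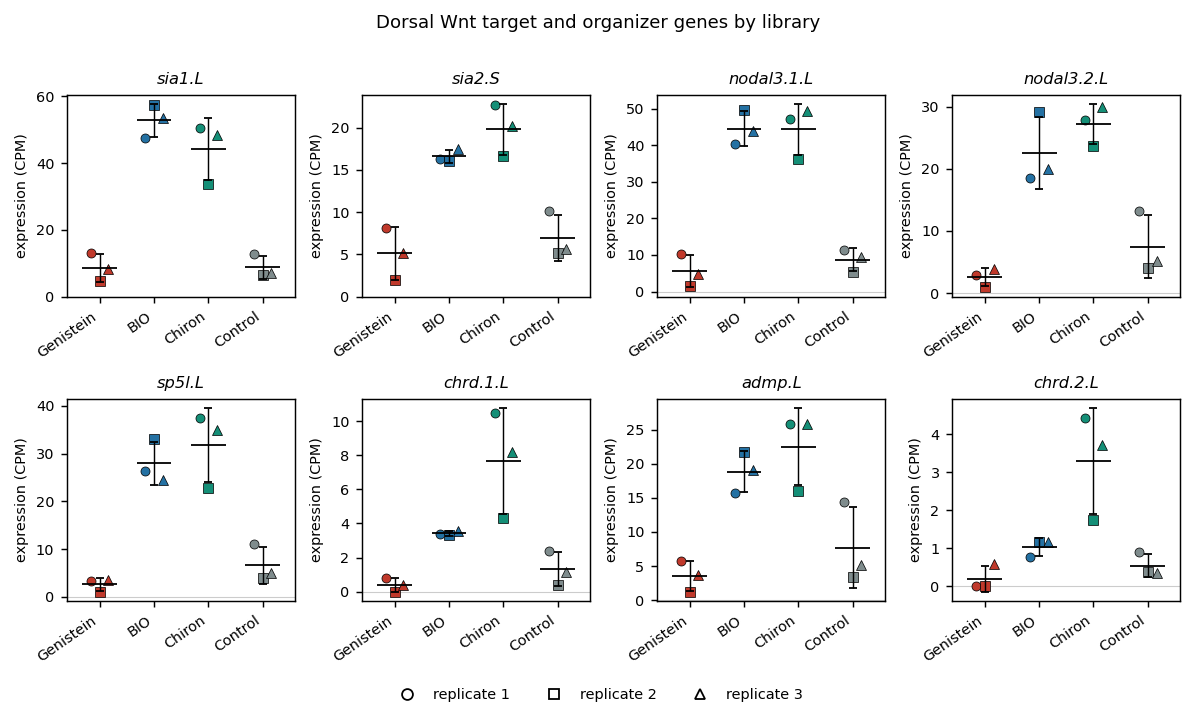
Expression in CPM of 8 dorsal Wnt target and organizer genes in each library of genistein, BIO, Chiron and Control. Points are libraries (symbols mark the replicate number), bars the mean and SD (n = 3). In sia1.L the genistein libraries lie between 4.62 and 13.0 CPM, those of BIO and Chiron between 33.7 and 57.3 CPM and those of Control between 6.51 and 12.7 CPM.

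In the lists from here on, calls stand beside shares over all genes of 9.04% lower and 13.0% higher in the plain fit. With the mitochondrial share in the model those were 6.48% lower and 1.69% higher. Organizer genes were lower as well, and more of them with the mitochondrial share in the model. Of 21 tested, 7 fell and 0 rose in the plain fit (median -1.38), 17 fell with the share (median -2.74), and 15 fell without the 3 libraries. The BMP antagonist chordin had 0.807, 0 and 0.384 CPM for chrd.1.L in genistein, against 3.37, 3.32 and 3.58 CPM in BIO and 10.5, 4.32 and 8.22 CPM in Chiron. All 3 genistein libraries lay below all 6 inhibitor libraries, and Control stood at 2.37, 0.387 and 1.14 CPM. The log2 fold change of chrd.1.L was -3.69 ± 0.70 (edgeR adjusted p = 0.0147, not called without Genistein 3). The copy chrd.2.L was at -3.29 ± 0.79 (edgeR adjusted p = 0.0273), called in 7 of 12 fits that left out 1 library and lost without Genistein 1, BIO 1, BIO 3, Chiron 1 or Chiron 3. The homeolog chrd.1.S stood at -2.18 ± 0.75 and just missed the plain test (edgeR adjusted p = 0.058), and passed with the share (-4.29 ± 0.61, edgeR adjusted p = 4.97e-04).

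The organizer BMP ligand admp.L had 5.74, 1.24 and 3.65 CPM in genistein, against 15.7, 21.8 and 19.0 CPM in BIO and 25.8, 16.0 and 25.8 CPM in Chiron. The groups did not overlap (log2 fold change -2.54 ± 0.52, edgeR adjusted p = 0.0195, not called without Genistein 3), and Control, at 14.4, 3.42 and 5.11 CPM, lay below the inhibitors and overlapped genistein. The other fallers were admp.S (-2.10), the notochord homeobox gene not.S (-1.78), the Wnt antagonist dkk1.L and the BMP and activin antagonist fst.L. Transcripts of dkk1.L had 0 counts over the 3 genistein libraries against 68 over the 6 inhibitor libraries, at least 8.42-fold lower by a floor of 3 counts over the group. Follistatin fst.L had 1 count against 55, a ratio of inhibitors to genistein of 20.4 (exact 95% interval 3.52 to 821, for counting error).

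Goosecoid, the classical organizer homeobox gene, did not pass in the plain fit. The gsc.S copy had 1.88, 0.330 and 1.54 CPM in genistein, against 2.60, 3.26 and 4.20 CPM in BIO and 2.09, 1.29 and 1.69 CPM in Chiron (log2 fold change -0.94 ± 0.52, edgeR adjusted p = 0.196). Genistein overlapped Chiron and lay below BIO. With the share gsc.S was at -2.18 ± 0.41 (edgeR adjusted p = 0.00398), and it also passed without the 3 libraries. The gsc.L copy had 0.897, 0.413 and 1.25 CPM in genistein, against 2.11, 1.63 and 2.48 CPM in BIO and 1.11, 0.451 and 0.607 CPM in Chiron, and passed in no fit (log2 fold change -0.54 ± 0.45, edgeR adjusted p = 0.383). The log2 difference of gsc.L between BIO and Chiron themselves was 1.5 ± 0.48 and did not pass.

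Among zygotic Wnt targets copies of the sp5 family and of hoxd1 fell. Of 19 tested 6 fell and 0 rose (median -0.26), with 6 and 4 falling in the other fits. The Wnt-responsive zinc finger gene sp5l.L had 3.32, 1.07 and 3.55 CPM in genistein, against 26.4, 33.1 and 24.5 CPM in BIO and 37.4, 22.9 and 35 CPM in Chiron. These groups lay far apart (log2 fold change -3.50 ± 0.44, edgeR adjusted p = 0.00309), with Control at 11, 3.87 and 4.90 CPM, above genistein and below the inhibitors in every library. Its relatives sp5l.S (-2.80) and sp5.L (-2.18) also fell. The homeobox gene hoxd1.L had 1 count over the genistein libraries against 181 over the inhibitor libraries (ratio of inhibitors to genistein 67.2, exact 95% interval 11.9 to 2669). Its homeolog hoxd1.S had 0 against 81 counts, at least 10-fold lower by the same floor. There were 13 members that did not pass in the plain fit, among them the feedback inhibitors notum, rnf43, znrf3 and nkd1 and the ligand wnt8a, with log2 fold changes between -0.98 (znrf3.S) and 0.72 (wnt8a.L) apart from sp5.S (-2.87).

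Among genes for the Wnt pathway itself a part fell and none rose. Of 73 tested components 17 fell and 0 rose in the plain fit (median -0.35), 13 fell with the share and 7 without the 3 libraries. The Wnt receptor gene fzd7.S, which the early frog embryo inherits from the egg, had 9.33, 7.18 and 7.88 CPM in genistein, against 18.8, 23.2 and 20.4 CPM in BIO and 24.9, 20.6 and 22.0 CPM in Chiron. Genistein lay below every inhibitor library and below Control (21.3, 19.5 and 15.1 CPM), and the log2 fold change was -1.41 ± 0.15 (edgeR adjusted p = 0.00168). The co-receptor lrp5.L had 37.0, 39.5 and 30.5 CPM in genistein, against 63.6, 55.1 and 64.0 CPM in BIO and 66.7, 57.1 and 59.2 CPM in Chiron. It too lay below Control (60.5, 66.0 and 67.3 CPM), with a log2 fold change of -0.77 ± 0.11 (edgeR adjusted p = 0.00441). In all 3 fits fzd10.L (-2.08 in the plain fit) and fzd8.L (-1.62) fell with them. The drug target genes gsk3b.L (-0.78), gsk3a.S (-0.76) and gsk3a.L (-0.70) fell in the plain fit and not in the other fits. Beta-catenin itself did not pass, with ctnnb1.L at -0.34 ± 0.16 (edgeR adjusted p = 0.136).

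Neural ectoderm genes were lower in part. Of 34 tested 10 fell and 1 rose (median -0.67), 17 fell and 0 rose with the share (median -1.38), and 11 fell without the 3 libraries. The LIM homeobox gene lhx5.S, of the anterior neural plate, had 0.269, 0.0826 and 0.288 CPM in genistein, against 4.78, 5.08 and 4.96 CPM in BIO and 5.29, 2.71 and 4.18 CPM in Chiron. It was 20.6-fold lower (log2 fold change -4.37 ± 0.52, edgeR adjusted p = 0.00259), and Control, at 3.02, 0.903 and 1.42 CPM, lay above genistein and overlapped Chiron. Its homeolog lhx5.L was at -3.50 ± 0.44 (edgeR adjusted p = 0.00309). The homeobox gene irx1.S had 0.359, 0 and 0.288 CPM in genistein, against 1.83, 1.76 and 2.76 CPM in BIO and 3.39, 3.61 and 2.76 CPM in Chiron (log2 fold change -3.59 ± 0.68, edgeR adjusted p = 0.0140, not called without Genistein 3). The zinc finger genes zic1.S (-2.56) and zic1.L (-1.84) also fell. The 1 riser, gmnn.L, which encodes the replication inhibitor geminin, had 1815, 436 and 1374 CPM in genistein against 324 to 516 CPM in the inhibitors, with Genistein 2 inside that range.

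The epidermal list held genes of both directions in the plain fit. Of 37 tested 11 fell (29.7%) and 7 rose (18.9%) in the plain fit (median 0.05), and with the share 14 fell and 0 rose. The fallers were copies of the transcription factor genes tfap2a, tfap2c, dlx5, grhl1, grhl3 and klf17 and of the splicing regulator gene esrp1. The ectodermal distal-less gene dlx5.S had 0 counts in all genistein libraries together, against 383 over the inhibitor libraries, at least 47.4-fold lower (edgeR adjusted p = 0.00309), with 2.86, 2.26 and 1.21 CPM in Control. The AP-2 gene tfap2a.L had 1.44, 0.743 and 1.63 CPM in genistein, against 9.84, 9.84 and 9.44 CPM in BIO and 11.2, 6.25 and 9.37 CPM in Chiron (log2 fold change -2.88 ± 0.34, edgeR adjusted p = 0.00242). Its Control values of 2.04, 1.16 and 0.781 CPM overlapped genistein.

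The other AP-2 gene tfap2c.L differed in the position of Control. It had 5.47, 6.11 and 5.57 CPM in genistein, against 18.3, 18.9 and 19.2 CPM in BIO and 23.7, 15.2 and 17.7 CPM in Chiron. Control (18.7, 20.0 and 21.4 CPM) lay with the inhibitors, and the log2 fold change was -1.72 ± 0.15 in the plain fit and -1.64 ± 0.17 with the share (edgeR adjusted p = 0.00102 and 4.58e-05). The 7 risers were 4 claudin-6 copies, epcam.L, spint1.S and krt18.1.L, membrane, junction and keratin genes. The leading one, cldn6.1.S, had 1462, 167 and 1007 CPM in genistein, against 184 to 360 CPM in BIO and Chiron, and 1136 CPM in Control 1. It was thus high in the 3 libraries that stood apart and low in Genistein 2, and its log2 fold change was 0.11 ± 0.25 with the share. Tandem and homeolog copies of cldn6 may share reads.

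Genes of pluripotent blastula cells fell in part, and none was called higher. Of 22 tested 11 fell (median -0.46), 12 with the share and 10 without the 3 libraries, and 8 fell in all 3 fits. The Krüppel-like factor gene klf2.S had 17.5, 20.6 and 20.9 CPM in genistein, against 44.5, 41.6 and 45.3 CPM in BIO and 53.2, 45.0 and 48.0 CPM in Chiron. Control at 52.8, 59.4 and 56.2 CPM lay above the inhibitors' mean, so genistein was the group apart (log2 fold change -1.23 ± 0.10, edgeR adjusted p = 0.00102). The spalt factor gene sall4.S had 77.8, 93.7 and 74.2 CPM in genistein, against 171, 145 and 199 CPM in BIO, 195, 139 and 167 CPM in Chiron and 161, 227 and 199 CPM in Control (log2 fold change -1.05 ± 0.16, edgeR adjusted p = 0.00548). The POU factor gene pou5f3.S, a relative of mammalian Oct4, had 0, 0.330 and 0.0961 CPM in genistein against 1.26 to 3.51 CPM in BIO and Chiron (log2 fold change -3.82 ± 0.61, edgeR adjusted p = 0.00653), and its call was lost without the 3 libraries. Copies of pou5f3 may share reads. Both copies of pou5f3.3 did not pass, at 0.22 (pou5f3.3.L) and 0.34 (pou5f3.3.S). Their means were 728 and 530 CPM in genistein and 626 and 418 CPM in BIO and Chiron. Copies with far more counts than pou5f3.S were thus not lower.

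**Figure D3:**
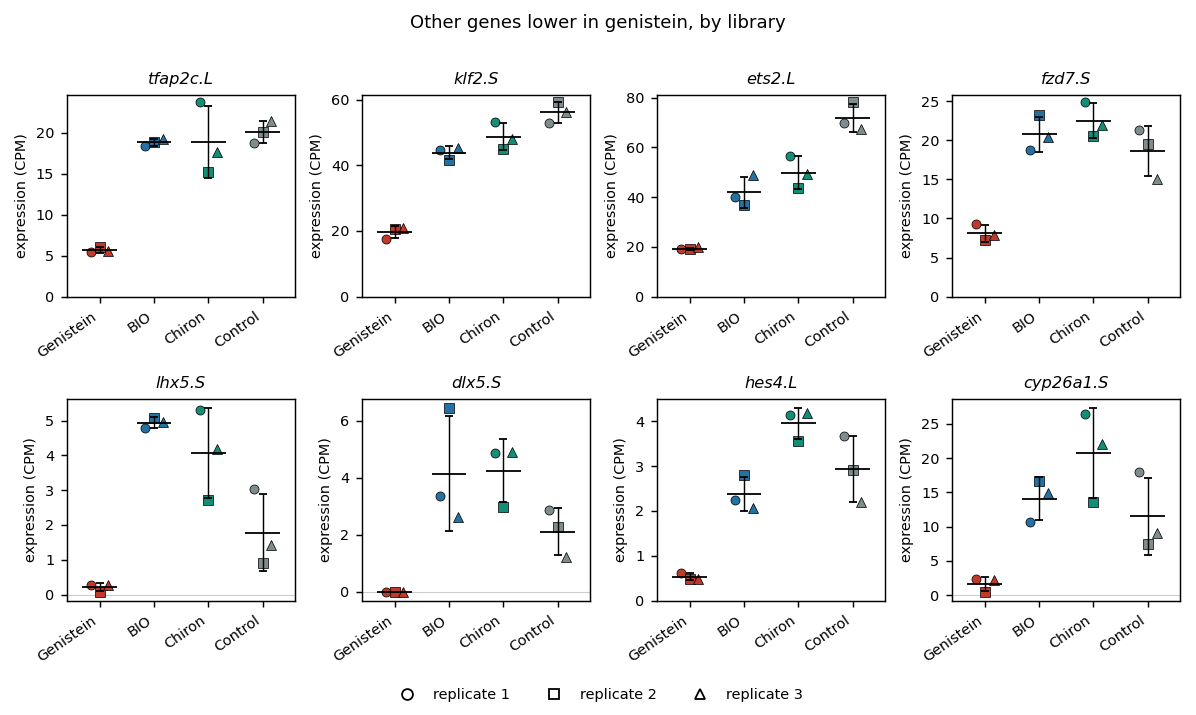
Expression in CPM of 8 further genes lower in genistein, by library, with mean and SD (n = 3). In tfap2c.L, klf2.S and fzd7.S the Control libraries overlap those of BIO and Chiron and lie above genistein. For klf2.S, for example, Control has 52.8 to 59.4 CPM and genistein 17.5 to 20.9 CPM. In ets2.L the Control libraries lie above all others, with BIO and Chiron between Control and genistein.

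Notch pathway genes held several fallers and 1 riser. Of 33 tested 11 fell and 1 rose in the plain fit (median -0.43), 11 and 1 with the share, and 10 and 1 without the 3 libraries. The summed level of the list was 500 to 572 CPM in genistein, 696 to 792 CPM in BIO and Chiron and 701 to 780 CPM in Control, with no overlap of genistein with the others. The repressor gene hes4.L had 0.628, 0.495 and 0.480 CPM in genistein, against 2.25, 2.80 and 2.07 CPM in BIO and 4.13, 3.55 and 4.18 CPM in Chiron. All 9 libraries kept to their side (log2 fold change -2.50 ± 0.27, edgeR adjusted p = 0.00168), with Control at 3.67, 2.90 and 2.20 CPM. Of the 10 tested copies of hes genes, targets of Notch, 5 fell, the others being hes7.2.S (-2.50), hes7.2.L (-1.82), hes1.L (-1.29) and hes4.S (-0.82). The 6 further fallers were the receptors notch3.L (-0.94) and notch1.S (-0.61), the ligand jag1.S (-0.67), the inhibitor numb.S (-0.58), the co-activator maml1.S (-0.64) and the DNA-binding partner rbpj.L (-0.39).

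The riser was the Notch ligand dll1.L, at 23.2, 5.12 and 17.8 CPM in genistein, against 1.26, 0.847 and 2.0 CPM in BIO and 2.46, 1.03 and 1.48 CPM in Chiron. Every genistein library lay above every other library of the series, Control included (4.08, 2.26 and 1.42 CPM). The log2 fold change of dll1.L was 3.34 ± 0.46 in the plain fit, 2.3 ± 0.39 with the share and 1.76 without the 3 libraries (edgeR adjusted p = 0.00412, 0.00177 and 0.0441). Its homeolog dll1.S did not pass (0.65).

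The list of FGF and MAPK genes held ligands, receptors, kinases and targets of receptor tyrosine kinase signalling, most of which did not pass. Of 65 tested 15 fell and 2 rose in the plain fit (median -0.23), 16 fell and 0 rose with the share, and 14 fell and 0 rose without the 3 libraries. The transcription factor gene ets2.L, an effector of MAPK, had 19.0, 19.2 and 19.8 CPM in genistein, against 40.1, 36.7 and 48.9 CPM in BIO and 56.6, 43.6 and 49.4 CPM in Chiron. Its genistein values were nearly equal across libraries of very different mitochondrial share, and Control (69.6, 78.2 and 67.4 CPM) lay above all others (log2 fold change -1.24 ± 0.12, edgeR adjusted p = 0.00147). The MAPK phosphatase gene dusp5.L had 1.52, 0.826 and 1.15 CPM in genistein, against 5.27, 5.15 and 5.44 CPM in BIO and 8.43, 5.93 and 8.63 CPM in Chiron, with Control between at 3.84, 1.74 and 2.06 CPM (log2 fold change -2.44 ± 0.31, edgeR adjusted p = 0.00309). The feedback inhibitors spry1.S (-1.47), spry2.S (-1.27) and spry2.L (-0.93), the phosphatase genes dusp6.L (-1.44) and dusp1.S (-1.17) and the receptor fgfr4.S (-0.74) fell beside them. The risers hras.L (0.38) and jund.S (0.61) passed in the plain fit alone.

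Most tyrosine kinase genes did not pass. Of 53 tested 8 fell (15.1%) and 2 rose (3.77%) in the plain fit (median -0.26), 4 fell with the share (median 0.04) and 0 in either direction without the 3 libraries. The insulin receptor gene insr.L had 19.6, 21.9 and 16.2 CPM in genistein against 28.7 to 38.9 CPM in BIO and Chiron (log2 fold change -0.80 ± 0.14, edgeR adjusted p = 0.00868, not called without Genistein 3 or without the 3 libraries). The Src-restraining kinase gene csk.S had 17.6, 29.1 and 17.5 CPM in genistein against 38.4 to 47.3 CPM in BIO and Chiron (log2 fold change -0.96 ± 0.22, edgeR adjusted p = 0.0259). Its call was lost without Genistein 1, Genistein 3, BIO 1, BIO 3 or any Chiron library, or without the 3 libraries, and Control 1, also of high mitochondrial share, had 24.5 CPM against 47.4 and 39.3 CPM in the other Control libraries.

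Mesoderm, endoderm and BMP genes had more calls with the mitochondrial share in the model than in the plain fit. Of 36 mesendoderm and Nodal genes 5 fell (13.9%) and 3 rose (8.33%) in the plain fit (median -0.37), against 9.04% and 13.0% of all genes. With the share 11 fell and 0 rose, against 6.48% and 1.69% of all genes. The endoderm gene sox17b.1.S had 7.0, 8.75 and 7.30 CPM in genistein, against 24.0, 16.0 and 19.1 CPM in BIO and 18.3, 13.7 and 15.9 CPM in Chiron. Control (9.14, 7.28 and 5.61 CPM) overlapped genistein, and the log2 fold change was -1.21 ± 0.19 (edgeR adjusted p = 0.00652). The Nodal ligand gene nodal1.L had 0.807, 0.660 and 1.54 CPM in genistein, against 4.78, 5.93 and 5.38 CPM in BIO and 2.52, 1.81 and 3.03 CPM in Chiron (log2 fold change -1.86 ± 0.36, edgeR adjusted p = 0.0148, not called without Genistein 1). Against BIO alone it was at -2.43 ± 0.38 and against Chiron alone at -1.30 ± 0.39, of which the first passed (edgeR adjusted p = 0.0114 and 0.075). The difference of nodal1.L between BIO and Chiron did not pass (1.13 ± 0.34).

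Of 47 BMP and ventral genes 2 fell and 3 rose in the plain fit, which is below the background of 9.04% and 13.0%, and 15 fell and 0 rose with the share. The BMP effector gene smad1.S had 46.7, 92.4 and 64.8 CPM in genistein, against 130, 114 and 140 CPM in BIO and 134, 123 and 126 CPM in Chiron (log2 fold change -0.91 ± 0.20, edgeR adjusted p = 0.0251). It was lowest in the libraries of high mitochondrial share, Control 1 (81.0 CPM) included, stood at -0.53 ± 0.09 with the share, and was not called without Genistein 1, Genistein 3, BIO 1, BIO 3, Chiron 1 or Chiron 3. The ligand gene bmp7.2.S rose (62.3, 43.8 and 53 CPM in genistein against 33.8 to 40.0 CPM in the inhibitors; log2 fold change 0.52 ± 0.14, edgeR adjusted p = 0.0304), and did not pass with the share (0.23), with library totals alone, or without Genistein 1, Genistein 3, BIO 1, BIO 3 or any Chiron library. Copies of the ventral repressor genes ventx1 and ventx2, which may share reads, made up 7 of the 15 that fell with the share, for example ventx2.L (-1.34 ± 0.46 in the plain fit, -2.56 ± 0.21 with the share).

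Of 4 tested genes of ventral and lateral mesoderm, 2 rose and 1 fell. The forkhead gene foxf1.L had 0.449, 0.330 and 0.865 CPM in genistein, against 3.58, 3.97 and 4.20 CPM in BIO and 1.72, 0.967 and 0.809 CPM in Chiron. Genistein 3 overlapped Chiron and all lay below BIO (log2 fold change -1.97 ± 0.38, edgeR adjusted p = 0.0151, not called without Genistein 1). Control, at 0.408, 0.193 and 0.284 CPM, overlapped genistein. Against BIO alone foxf1.L was at -2.84 ± 0.40, and against Chiron alone at -1.10 ± 0.43, which did not pass (edgeR adjusted p = 0.00795 and 0.106). The risers were the homeologs of the apelin receptor gene aplnr, a G-protein-coupled receptor of gastrulating mesendoderm and later vessels.

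The apelin receptor copy aplnr.S had the largest rise among the genes named by rule. It had 22.2, 2.72 and 14.3 CPM in genistein, against 0.281, 0.391 and 0.896 CPM in BIO and 0.369, 0.645 and 0.607 CPM in Chiron, with 0.734, 0 and 0.213 CPM in Control. Genistein 2 lay well below the other genistein libraries and still above all 9 others of the series. The log2 fold change of aplnr.S was 4.60 ± 0.63, 2.65 ± 0.45 with the share and 2.35 without the 3 libraries (edgeR adjusted p = 0.00412, 0.00183 and 0.0402). The homeolog aplnr.L had 8.25, 1.9 and 7.59 CPM in genistein against 0.645 to 2.60 CPM in the inhibitors, so Genistein 2 lay inside their range (log2 fold change 2.09 ± 0.44, edgeR adjusted p = 0.0202; 0.90 with the share, not called).

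The polo-like kinase gene plk2.L, a stress-responsive regulator of centriole duplication in mammals, had 12.6, 3.96 and 12.1 CPM in genistein, against 0.632, 0.651 and 0.620 CPM in BIO and 0.308, 0.516 and 0.742 CPM in Chiron. It was 16.4-fold higher (log2 fold change 4.03 ± 0.37, edgeR adjusted p = 0.00102), and Control had 0.245, 0.0645 and 0.142 CPM. With the share it was at 3.05 ± 0.35 and without the 3 libraries at 2.77. The homeolog plk2.S, the copy with more counts in BIO, Chiron and Control, rose less. It had 9.24, 4.95 and 7.97 CPM in genistein against 2.27 to 3.65 CPM in the inhibitors. Control had 6.45, 2.90 and 3.83 CPM, so Control 1 lay inside the genistein range. In the plain fit plk2.S was 2.46-fold higher (edgeR adjusted p = 0.0203). With the share plk2.S did not pass (log2 fold change 0.719 ± 0.214, edgeR adjusted p = 0.0524). Without the 3 libraries it was at 0.725. The nucleotidyltransferase gene tent5a.L had 16.1, 4.21 and 10.8 CPM in genistein, against 0.773, 1.24 and 1.45 CPM in BIO and 1.23, 1.10 and 1.96 CPM in Chiron (log2 fold change 3.00 ± 0.39, edgeR adjusted p = 0.00318). Control, at 0.898, 1.42 and 0.568 CPM, lay with the inhibitors. In aplnr.S, plk2.L, dll1.L and tent5a.L the value in Genistein 2 was below those in Genistein 1 and 3, as was its mitochondrial share, and the part of that share in the size of these folds was not tested.

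The cytoplasmic polyadenylation gene cpeb1.S, an oocyte regulator of translation, was higher without that gradient. It had 258, 290 and 267 CPM in genistein, against 150, 159 and 173 CPM in BIO, 173, 196 and 175 CPM in Chiron and 179, 218 and 213 CPM in Control. Every genistein library lay above all 9 others, with a log2 fold change of 0.67 ± 0.10 in the plain fit and 0.79 ± 0.08 with the share (edgeR adjusted p = 0.00486 and 4.42e-05). With aplnr.S, plk2.L, dll1.L and tent5a.L it completes the 5 of 20 named higher genes called under every alternative checked for single genes. The 16 genes higher in all 3 fits further held dnajc9.L (0.85), ssx2ip.S (0.79), fbxo43.S (0.71), the meiotic APC/C inhibitor, and btg4.S (0.46), an mRNA-decay factor of the egg-to-embryo transition, by their plain log2 fold changes. In 13 of the 16 all 3 Control libraries lay below all 3 genistein libraries, as in 7.48% of all genes. The 16 were chosen for high genistein values, which favours this position, so it is a description. In ssx2ip.S, fbxo43.S and itfg1.S Control overlapped genistein.

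**Figure D4:**
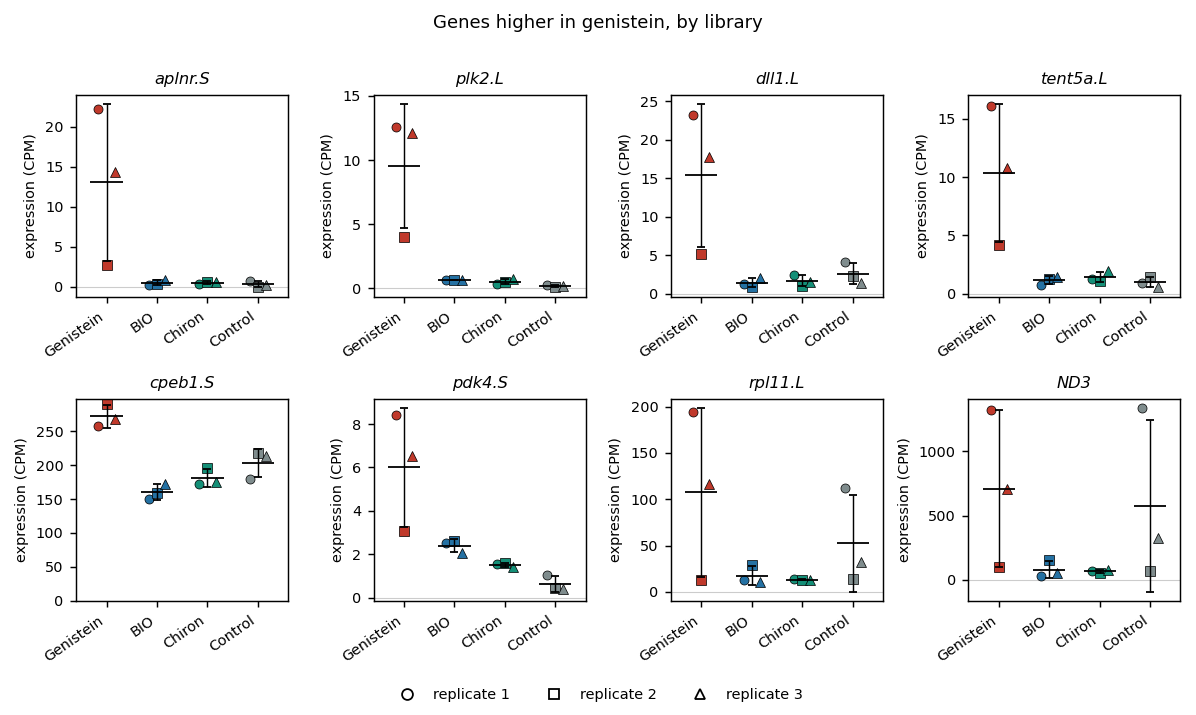
Expression in CPM of 8 genes higher in genistein in the plain fit, by library, with mean and SD (n = 3). In plk2.L all genistein libraries (3.96 to 12.6 CPM) lie above all others (0.0645 to 0.742 CPM), whereas in rpl11.L and ND3 Genistein 2 lies with the inhibitors and Control 1 lies high with Genistein 1 and Genistein 3.

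Mitochondrially encoded and ribosomal protein genes held risers in the plain fit and none in the other fits. All 12 mitochondrially encoded genes rose in the plain fit (median 2.78), and 53 of 147 ribosomal protein genes rose with 0 falling (median 0.81). With the share 0 of either passed, which for the mitochondrial genes follows from the share being made of them, and without the 3 libraries 0 passed, with medians of 0.31 and -0.16. The respiratory chain gene ND3 had 1325, 100 and 705 CPM in genistein, against 26.3, 158 and 55.5 CPM in BIO, 65.0, 55.6 and 75.0 CPM in Chiron and 1338, 70.2 and 325 CPM in Control (log2 fold change 3.30 ± 0.84, edgeR adjusted p = 0.0287). Genistein 2 overlapped the inhibitors, and Control 1 matched Genistein 1. The same order held for ND6 (2.63 ± 0.67), for rpl23.L (2.66 ± 0.67), and for rpl11.L with 194, 12.5 and 116 CPM in genistein against 10.3 to 28.9 CPM in the inhibitors and 112 CPM in Control 1. The plain log2 fold change of rpl11.L, 2.83 ± 0.71, turned to -0.28 without the 3 libraries. Calls of these 4 genes were lost without Genistein 1, Genistein 3, BIO 1, BIO 3 or any Chiron library.

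Maternal and germ plasm genes, transcripts laid down in the egg, also held risers. Of 59 tested 20 rose and 4 fell in the plain fit (median 0.36), 4 rose and 2 fell with the share (median 0.11), and 3 rose and 2 fell without the 3 libraries (median 0.00). The germ plasm gene dnd1.L had 528, 94.9 and 389 CPM in genistein against 74.1 to 124 CPM in BIO and Chiron and 478 CPM in Control 1. Genistein 2 was inside the range of the inhibitors, and the log2 fold change of 1.75 ± 0.46 became 0.34 ± 0.19 with the share. The oocyte kinase gene mos.L went the other way, at 142, 173 and 158 CPM in genistein, against 233, 222 and 251 CPM in BIO and 240, 204 and 230 CPM in Chiron (log2 fold change -0.55 ± 0.10, edgeR adjusted p = 0.0143; not called without Genistein 1 or Genistein 3). All genistein libraries lay below the inhibitors and below Control (239, 242 and 224 CPM).

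**Figure D5:**
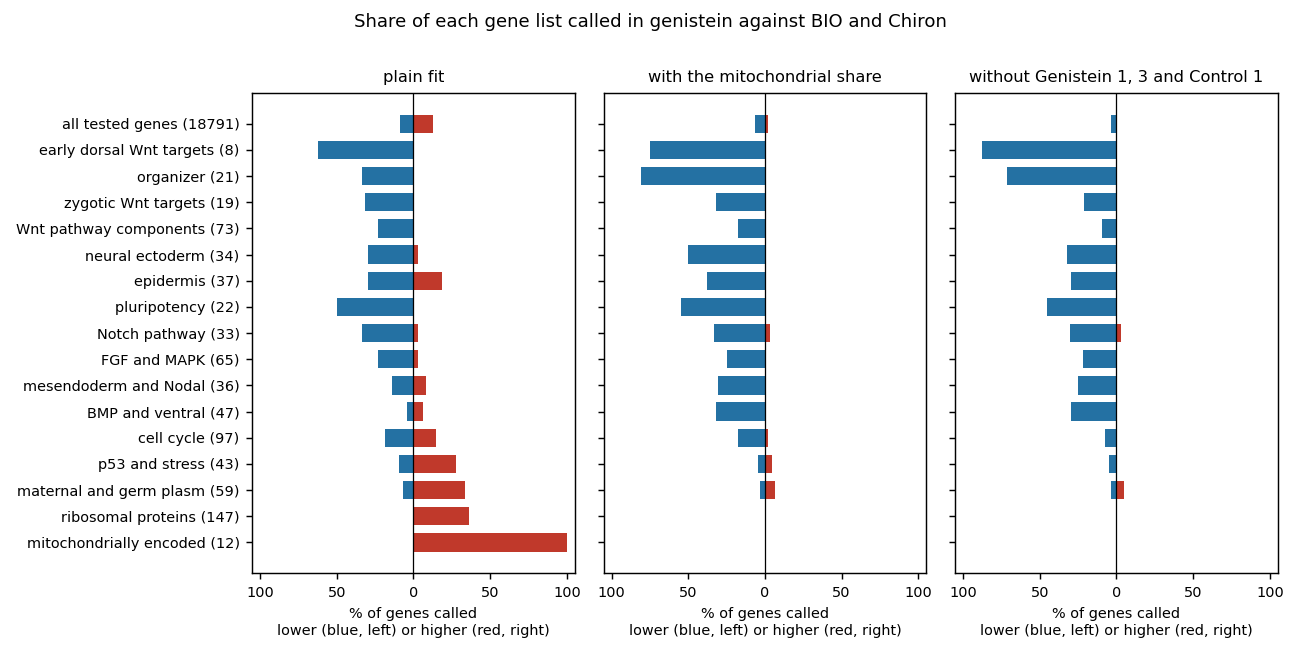
Percent of the tested genes of each list (number in parentheses) called lower (blue, to the left) or higher (red, to the right) in genistein than in BIO and Chiron, in the plain fit, with the mitochondrial share as covariate, and without Genistein 1, Genistein 3 and Control 1. Early dorsal and organizer genes fall in all panels (62.5% and 33.3% in the plain fit, against 9.04% of all genes), and the red bars of ribosomal protein and mitochondrially encoded genes appear in the plain fit only.

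Of 97 tested cell cycle genes 18 fell (18.6%, against 9.04% of all genes) and 14 rose (14.4%, near the 13.0% of all genes) in the plain fit (median -0.16), 17 fell and 2 rose with the share, and 7 fell and 0 rose without the 3 libraries. The mitotic kinase gene aurkb.L had 17.7, 17.9 and 17.7 CPM in genistein, against 26.2, 27.4 and 30.7 CPM in BIO, 36.4, 25 and 28.4 CPM in Chiron and 41.2, 40.9 and 45.7 CPM in Control. Genistein was below all of these (log2 fold change -0.71 ± 0.12, edgeR adjusted p = 0.0104; not called without Genistein 3, or without the 3 libraries). The centriole duplication kinase gene plk4.L had 12.3, 8.83 and 8.07 CPM in genistein against 17.4 to 21.7 CPM in BIO and Chiron and 18.3 to 23.9 CPM in Control (log2 fold change -0.99 ± 0.16, edgeR adjusted p = 0.00626), so plk4.L and plk2.L of the polo-like kinases, a list of 8 with 2 risers and 2 fallers, moved in opposite directions. The mitotic kinase cdk1.L (-0.81) and the phosphatase gene cdc25b.S (-1.48) fell too. The risers pcna.S (2.39) and pcna.L (1.57), of the replication clamp, passed in the plain fit alone, with pcna.S at 367, 27.9 and 246 CPM in genistein and 350 CPM in Control 1 against 28.5 to 78.6 CPM in the inhibitors.

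Of 35 topoisomerase and DNA damage genes 3 fell (8.57%) and 2 rose (5.71%), below the shares of all genes. The checkpoint kinase gene chek1.S had 135, 98.5 and 130 CPM in genistein against 74.6 to 88.9 CPM in BIO and Chiron (log2 fold change 0.56 ± 0.11, edgeR adjusted p = 0.0188). Its call was lost without Genistein 1, Genistein 3, Chiron 1 or the 3 libraries. Of 43 p53 and stress genes 12 rose (27.9%, against 13.0% of all genes) and 4 fell (9.30%, against 9.04%) in the plain fit (median 0.18), 2 and 2 with the share, and 0 and 2 without the 3 libraries. The stress-induced leucine sensor gene sesn2.S had 61.7, 40.0 and 58.3 CPM in genistein against 33.0 to 36.3 CPM in the inhibitors (log2 fold change 0.62 ± 0.13, edgeR adjusted p = 0.0187), called neither without the 3 libraries nor without Genistein 1, Genistein 3, BIO 1 or BIO 3. The glutathione-degrading enzyme gene chac1.S fell in all 3 fits, at 8.52, 4.54 and 7.97 CPM in genistein against 12.6 to 18.2 CPM in BIO and Chiron (log2 fold change -1.11 ± 0.21, edgeR adjusted p = 0.0138; not called without Genistein 3). Cyclin G1 ccng1.L rose to 8.34, 1.82 and 6.82 CPM in genistein, against 0.369 to 1.43 CPM in the inhibitors (log2 fold change 2.81 ± 0.59, edgeR adjusted p = 0.0208), and did not pass with the share (1.22). Its call was also lost without Genistein 1, Genistein 3, BIO 1, BIO 3 or Chiron 1.

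Of 21 retinoic acid genes 1 fell (4.76%) and 2 rose (9.52%) in the plain fit, both shares below those of all genes (9.04% and 13.0%). The degrading enzyme gene cyp26a1.S had 2.33, 0.495 and 2.21 CPM in genistein, against 10.6, 16.7 and 15 CPM in BIO and 26.5, 13.5 and 22.1 CPM in Chiron. It was 10.3-fold lower (log2 fold change -3.36 ± 0.48, edgeR adjusted p = 0.00441), and genistein lay below Control as well (18.0, 7.48 and 9.09 CPM). The homeolog cyp26a1.L, the copy with more counts, had means of 24.8 CPM in genistein and 23.8 CPM in the inhibitors. It did not pass (log2 fold change 0.06 ± 0.20, edgeR adjusted p = 0.840), and stood at -0.31 with the share and -0.59 without the 3 libraries. The synthesis enzyme gene rdh10.S had 196, 42.8 and 149 CPM in genistein against 46.2 to 59.3 CPM in the inhibitors and 128 CPM in Control 1 (log2 fold change 1.33 ± 0.37, edgeR adjusted p = 0.0323). Genistein 2 lay below the inhibitors, the value without the 3 libraries was -0.26, and the call was lost without Genistein 1, Genistein 3, BIO 1, BIO 3 or any Chiron library.

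Lists chosen for known actions of isoflavones were short, so single genes set their shares, given here against the 9.04% lower and 13.0% higher of all genes. Of 8 aryl hydrocarbon receptor genes 2 fell (25%), the homeologs of the receptor partner arnt. The copy arnt.S had 11.3, 11.1 and 11 CPM in genistein, against 19.4, 22.0 and 26.6 CPM in BIO, 20.7, 21.9 and 21.0 CPM in Chiron and 19.8, 23.9 and 19.7 CPM in Control. Genistein was separate from all others, with a log2 fold change of -0.98 ± 0.12 (edgeR adjusted p = 0.00309). The copy arnt.L was at -0.62 ± 0.14 (edgeR adjusted p = 0.0240; not called without Genistein 1, Genistein 3, BIO 1, BIO 3 or the 3 libraries). Of 11 genes of the estrogen list, mostly receptor and co-regulator genes, 2 fell (18.2%) and 1 rose (9.09%). The co-regulator genes nrip1.L (-0.72 ± 0.15) and ncoa2.S (-0.89 ± 0.20) were the fallers (edgeR adjusted p = 0.0208 and 0.0252), and both calls were lost without the 3 libraries, Genistein 1, Genistein 3, BIO 1 or BIO 3, that of ncoa2.S also without Chiron 1 or Chiron 3.

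Of 19 NRF2 pathway genes, a list that also holds the NRF2 gene nfe2l2 and its inhibitor keap1, 4 rose (21.1%) and 3 fell (15.8%). The fallers were abcc1.L (-0.72), keap1.L (-0.59) and sqstm1.L (-0.39). With the share 0 rose and 1 fell. The median log2 fold change was -0.03 in the plain fit and 0.15 without the 3 libraries. The peroxidase genes prdx1.S (2.5 ± 0.57) and gpx4.L (2.15 ± 0.52) led the list by p (edgeR adjusted p = 0.0259 and 0.0271). In Genistein 2 prdx1.S had 6.60 CPM and gpx4.L 43.2 CPM, inside the inhibitors' ranges of 3.58 to 8.21 CPM and 31.3 to 55.5 CPM, and neither passed with the share or without Genistein 1, Genistein 3, BIO 1, BIO 3 or any Chiron library. Of 25 pyruvate and energy metabolism genes 4 fell (16%) and 2 rose (8%). The pyruvate dehydrogenase kinase gene pdk4.S had 8.43, 3.05 and 6.53 CPM in genistein, against 2.53, 2.61 and 2.07 CPM in BIO and 1.54, 1.61 and 1.42 CPM in Chiron (log2 fold change 1.64 ± 0.31, edgeR adjusted p = 0.0139; 0.79 with the share). Control was lower still at 1.06, 0.451 and 0.426 CPM. The homeolog pdk4.L went the other way, at 0.987, 0.660 and 0.480 CPM in genistein against 1.10 to 2.53 CPM in BIO and Chiron. Its log2 fold change was -1.20 ± 0.36 (edgeR adjusted p = 0.0399), and it did not pass with the share (-1.07). The co-activator gene ppargc1a.L fell, with a log2 fold change of -0.96 ± 0.19 (edgeR adjusted p = 0.0176). The calls of pdk4.S and ppargc1a.L were lost without Genistein 1, Genistein 3 or the 3 libraries, and that of pdk4.S with the share.

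The remaining genes that the naming rule took by size of change were of mixed kind. The marginal coil gene xmc.L had 0 counts over the genistein libraries against 390 over the inhibitor libraries, at least 48.3-fold lower (edgeR adjusted p = 0.00548), with 1.96, 0.322 and 0.852 CPM in Control. The lysophosphatidic acid receptor gene lpar6.L had 0.359, 0 and 0.0961 CPM in genistein, against 0.632, 2.34 and 1.03 CPM in BIO and 3.45, 2.84 and 4.18 CPM in Chiron (log2 fold change -3.78 ± 0.79, edgeR adjusted p = 0.0203, not called without Genistein 3). The protocadherin gene pcdh18.S (-2.60 ± 0.83) and the keratin gene krt70.S (-2.84 ± 1.01) were named from the fit with the share, where they stood at -4.60 ± 0.76 and -5.77 ± 0.67 (edgeR adjusted p = 0.00146 and 9.74e-05). The gene mpnd.S was high in BIO 2 (9.31 CPM), Chiron 1 (7.39 CPM) and Control 1 (8.89 CPM), and at 0.387 CPM or less in the others, so its call with the share (edgeR adjusted p = 0.0225) was lost without any one of these, and also without Genistein 1 or the 3 libraries that stood apart.

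Among the higher genes of the rule, fxyd2.S (1.88 ± 0.48), a regulator of the sodium pump, nudt12.S (1.93 ± 0.53), an NADH-processing hydrolase, and the mitochondrial ATP synthase gene ATP8 (2.39 ± 0.79) did not pass with the share or without the 3 libraries, and were called in 5, 5 and 3 of 12 fits that left out 1 library. ATP8 overlaps ATP6 on the mitochondrial genome and may share reads with it. It had 21.0, 19.7 and 19.6 CPM in genistein, against 0.703, 2.41 and 0.965 CPM in BIO and 1.17, 12.4 and 18.3 CPM in Chiron, with its own adjusted p at the threshold (edgeR, 0.050). From the fit with the share the rule added the sterol enzyme gene msmo1.L (1.34 ± 0.32), the ephrin gene efna1.S (1.17 ± 0.30), vps26c.S (1.10 ± 0.32), of an endosomal sorting complex, and lix1.L (1.0 ± 0.21), all also called in the plain fit. Without the 3 libraries none of these 4 passed in the plain fit. With the share, the call of vps26c.S held in 2 of 12 fits that left out 1 library, those of Genistein 1 and BIO 2. That of efna1.S was lost without Genistein 2, Genistein 3, Chiron 3 or Control 2, and that of msmo1.L without Genistein 2 or Control 1.

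Few genes differed between BIO and Chiron themselves. In the plain fit 0 genes differed between BIO and Chiron at an adjusted p under 0.05 by edgeR, and DESeq2 called 0 higher and 2 lower in BIO. By edgeR 217 of 18791 genes had an unadjusted p under 0.05. That is fewer than this threshold gives without any difference, so the test was strict here. With the mitochondrial share 1 gene was higher in BIO than in Chiron (0.00532%) and 4 were lower (0.0213%). A p that misses the threshold does not show that the inhibitors act alike, and for sia1.L their log2 difference was 0.25 ± 0.32. Set against BIO alone, 130 genes were higher (0.692%) and 553 lower (2.94%) in genistein, and against Chiron alone 34 were higher (0.181%) and 407 lower (2.17%). With the share these numbers were 259 (1.38%) and 1025 (5.45%) against BIO, and 96 (0.511%) and 860 (4.58%) against Chiron. Without the 3 libraries they were 106 (0.563%) and 665 (3.53%) against BIO, 18 (0.0956%) and 499 (2.65%) against Chiron, and between BIO and Chiron 0 higher and 2 lower (0.0106%). Both contrasts share the genistein libraries, so their calls are not independent. In the plain fit against BIO the counts ran from 1 higher and 47 lower without BIO 3 to 4549 and 4262 without Genistein 2. Against Chiron they ran from 3 higher without Genistein 3 or any 1 Chiron library, and 104 lower without Chiron 1, to 4651 and 4474 without Genistein 2.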

How the data were processed

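Poly-A, strand-specific RNA libraries of 12 samples were sequenced, per the labels' protocols, each from 60 ng of RNA of 3 pooled embryos. The authors deposited raw gene-level counts (whole numbers, no scaling) in 1 table, whose 12 columns match the samples' descriptions by name. Reads were aligned with STAR 2.5.2b and edgeR was used, per the submitters' processing notes; of genome build, annotation and counting tool the sources used here say nothing. No coordinates or sequences are printed for this reason. L and S homeologs and tandem copies have their own rows, and how reads shared by copies were counted is not given.

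From the deposited counts, genes were filtered with filterByExpr by group (101 of 18892 removed), scaled by TMM and fitted with edgeR 4.0.16 (limma 3.58.1, R 4.3.3) by quasi-likelihood over all 12 libraries with a mean per group. The contrast was genistein minus the mean of BIO and Chiron, with Benjamini-Hochberg adjustment over all 18791 genes and a threshold of 0.05. The same fit was made with the percent of counts on the 12 mitochondrially encoded genes as a linear covariate, and without the 3 libraries that stood apart. Fold changes are log2 with an SE derived from the test, as the size of the log2 fold change over the square root of F. This SE therefore adds nothing to the p-value. The common biological coefficient of variation was 22.4% in the plain fit and 10.2% with the share. Library totals set the precision of low genes, and intervals and floors (95%, 3 counts) cover counting error only.

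Genes were named by a rule. It took 8 genes of each direction by size among those called, with a mean of at least 1 CPM, a gene symbol and no overlap of the groups, then 4 of each direction more from the fit with the share. It added up to 2 genes of each list with the smallest p, and all copies of sia1, sia2, nodal3, gsc and chrd. The comparison, rule and 26 gene lists were chosen with earlier results of these data known, so list counts are descriptions. Alternatives were DESeq2 1.42.0, other scalings, filters and models, summed homeologs (for numbers of calls only), a replicate block and leaving out each library. For BIO or Chiron alone these alternatives were added after seeing the data. Scripts were tested on simulated data. No sample was left out of the plain fit. Some genes that the rule names are not reported here.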

Additional observations from a re-analysis of the deposited data

Results flagged for a closer look

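There were 5 genes that differed between BIO and Chiron once the mitochondrial share was in the model, so that genistein was set there against unlike values. The chemokine receptor gene cxcr4.S had a log2 difference, BIO minus Chiron, of -1.20 (edgeR adjusted p = 0.0102) and its homeolog cxcr4.L of -1.08 (edgeR adjusted p = 0.0338). The level of cxcr4.L was 12.3, 20.6 and 14.7 CPM in BIO and 32.8, 31.7 and 34.9 CPM in Chiron, without overlap. The BMP response gene id3.L was the 1 gene higher in BIO, by 1.34 (edgeR adjusted p = 0.0102), at 23.7, 26.6 and 27.9 CPM in BIO and 11.3, 7.16 and 12.4 CPM in Chiron. Genistein lay at 17.7, 5.78 and 14.1 CPM, across the range of Chiron and below BIO. The unnamed genes LOC121399351 (-2.33) and LOC108713475 (-2.67) were lower in BIO (edgeR adjusted p = 0.0102 for each). LOC121399351 had 0.913, 0.912 and 0.758 CPM in BIO and 3.94, 4.64 and 4.52 CPM in Chiron. None of the 5 passed in the plain fit.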

How the results depend on the processing

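The named genes called in the plain fit were checked under the plain-fit alternatives and in the main fit with the mitochondrial share. Summed homeologs were not among these checks, and 4 values of named genes without an adjusted p were left out. All 42 lower genes kept their direction and 22 their call in every check. Of the 20 higher ones 18 kept their direction and 5 their call. With libraries left out, rdh10.S ran from -0.26 to 1.77 and rpl11.L from -0.28 to 3.38, both negative only without Genistein 1, Genistein 3 and Control 1; the cause was not tested. The plain count of higher genes (2437) was 1201 with library totals alone, 3683 with the DESeq2 Wald test and 71 without those 3 libraries, and ran from 13 without Genistein 3 to 5143 without Genistein 2. That of lower genes (1698) was 687 without the 3 libraries and ran from 224 without Genistein 3 to 4937 without Genistein 2. With the mitochondrial share the higher count (318) was 68 with the 9 genistein, BIO and Chiron libraries only, 104 with totals alone, 503 with DESeq2 size factors, 194 with homeologs summed, 710 without the 3 libraries, 791 with the DESeq2 Wald test and 74 with the log2 share, and ran from 120 without Control 1 to 1131 without Genistein 2. The lower count (1217) was 650 with the 9 libraries only and ran from 798 to 1243 with 1 library left out.

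The alternatives for single inhibitors were chosen after seeing the data. Against BIO alone the plain counts (130 higher, 553 lower) were 208 higher with the 9 libraries only, 70 and 937 with totals alone, 44 and 333 with homeologs summed and 2370 and 1507 with the DESeq2 Wald test, and ran from 1 to 4549 and from 47 to 4262 with 1 library left out. With the share (259 and 1025) they were 81 and 586 with the 9 libraries only, 107 higher with totals alone, 160 higher with homeologs summed, 615 higher with the DESeq2 Wald test and 56 and 653 with the log2 share, and ran from 63 to 809 and from 654 to 1099 with 1 library left out, or 849 and 1465 without the 3 libraries. Against Chiron alone the plain counts (34 and 407) were 665 lower with totals alone, 20 and 265 with homeologs summed and 2591 and 1340 with the DESeq2 Wald test, and ran from 3 to 4651 and from 104 to 4474 with 1 library left out, or 18 and 499 without the 3 libraries. With the share (96 and 860) they were 17 and 462 with the 9 libraries only, 41 higher with totals alone, 165 higher with DESeq2 size factors, 149 higher with mitochondrially encoded genes removed, 63 higher with homeologs summed, 388 higher with the DESeq2 Wald test and 31 higher with the log2 share, and ran from 20 to 1056 and from 547 to 919 with 1 library left out, or 248 and 1010 without the 3 libraries.

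Whether replicate numbers pair the samples is not known. Of 6 genistein and inhibitor pairs with the same number 1 had a correlation of deviations over 0.1 (range -0.549 to 0.183). Of all 18 same-number pairs 5 did (range -0.555 to 0.767). The highest were Genistein 2 with Control 2 and Genistein 1 with Control 1 (0.676). With 3 libraries per group this check cannot tell a shared clutch from a like mitochondrial share. With the replicate block 1226 genes were higher in the plain fit, and with the share 26 were higher and 639 lower. Against BIO alone the block gave 22 higher and 318 lower, and 28 and 587 with the share, and against Chiron alone 17 and 251, and 13 and 476. Of 571 list medians recomputed, 533 moved by at most 1 SD, that of the list's median level over the 3 genistein libraries. This SD is wide for lists in which Genistein 2 differs from the other genistein libraries, so for those it says little of stability. Depth limits the genes at 0 or 1 count in genistein to bounds.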

Other observations

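A chemokine gene, cxcl12.L, and both homeologs of a receptor gene, cxcr4, were lower in genistein. They are outside the lists and were picked with their values known, and other chemokine genes were not counted. The ligand gene cxcl12.L had 0 counts over the 3 genistein libraries against 122 over the 6 inhibitor libraries, which puts it at least 15.1-fold lower with the 0 taken as 3 counts (edgeR adjusted p = 0.00436). Its level was 1.55, 1.76 and 2.07 CPM in BIO and 1.17, 0.451 and 1.15 CPM in Chiron, with 0.163, 0.258 and 0.355 CPM in Control. The receptor gene cxcr4.L had 4.40, 1.24 and 4.80 CPM in genistein, against 12.3, 20.6 and 14.7 CPM in BIO and 32.8, 31.7 and 34.9 CPM in Chiron. Genistein lay below every inhibitor and Control library (25.1, 11.6 and 13.0 CPM in Control), with a log2 fold change of -2.73 ± 0.40 (edgeR adjusted p = 0.00486). The homeolog cxcr4.S was at -1.92 ± 0.38 (edgeR adjusted p = 0.0176).

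The spindle kinesin gene kif11.L, likewise outside the lists, had 27.7, 24.3 and 27.2 CPM in genistein, against 54.9, 52.0 and 66.2 CPM in BIO and 74.4, 51.5 and 62.1 CPM in Chiron. Control lay with the inhibitors at 61.9, 74.5 and 66.2 CPM, and the log2 fold change was -1.19 ± 0.14 (edgeR adjusted p = 0.00225). The purinergic receptor gene p2ry2.L was lower too, with a log2 fold change of -3.42 ± 0.50 (edgeR adjusted p = 0.00486).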
